A study of Mus musculus with 9 samples.

Results

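Zinc transporters, the zinc-sensing transcription factor MTF1 and the metallothioneins were examined in mouse articular chondrocytes that overexpressed OSCAR, a collagen receptor, with or without the drug 5-ASA. The genes were chosen by name, as members of the zinc-ZIP8-MTF1 axis of osteoarthritis, a rule that uses no measured value, although it was set with earlier results of these data known. They are 8 of the 55471 genes in the files: the importer genes *Slc39a8* (ZIP8), *Slc39a14* (ZIP14) and *Slc39a1* (ZIP1), the exporter genes *Slc30a1* (ZnT1) and *Slc30a4* (ZnT4), the regulator *Mtf1*, and the metallothionein genes *Mt1* and *Mt2*. All 8 passed the filter on low counts, and the lowest value of any of them was 443 counts, for *Slc30a1*.

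RNA was sequenced from 9 cultures of primary chondrocytes, isolated from the knee ends of femur and tibia of WT mice at postnatal day 5. The groups, of 3 cultures each, were Control, Ad-OSCAR (an adenovirus from which the cells express OSCAR) and Ad-OSCAR + 5-ASA. Per the published methods, the control cells carried a control virus, Ad-Control, every plate was coated with COLpep, a collagen peptide that OSCAR binds, no IL-1β was added, and the drug was used at 10 µM. The sample labels give 400 MOI for 2 h, with 3 days of culture before and 36 h after, whereas the methods text gives 800 MOI, 2 days and 24 h. The study describes its n in general as biologically independent samples, but no source used here ties the cultures of a group to separate animals, so the p-values measure the spread between these cultures, which may be technical.

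*Oscar* had 3 to 4 counts in the Control cultures and was at 6665 ± 397 CPM (counts scaled to the library size by TMM; SD, n = 3) with Ad-OSCAR and 3399 ± 404 CPM (SD, n = 3) with Ad-OSCAR + 5-ASA. The cultures differed widely in chondrocyte identity between groups. The summed level of 10 chondrocyte markers ran from 38618 to 44331 CPM in Control, from 2373 to 2703 CPM with Ad-OSCAR and from 2833 to 3286 CPM with 5-ASA, and none of the markers was at 0. The sum of 7 fibroblast and synovial markers ran from 13455 to 14296, from 10475 to 11332 and from 12520 to 13687 CPM, in the same order. This sum joins both directions: with Ad-OSCAR against Control 2 of the 7 were higher and 5 lower at an adjusted p below 0.05. Of all genes 32.7% were higher and 32.2% lower. The sum of 8 macrophage and blood cell markers reached at most 14.0 CPM (5.59 to 7.61 CPM in Control and at least 13.1 CPM with Ad-OSCAR), with *Hbb-bs* at 0 in every culture, while 4 endothelial and 4 skeletal muscle markers summed to at most 2.80 and 1.31 CPM. The groups compared below therefore also differ in the chondrocyte markers, and the part of this in any difference was not tested. In such bulk RNA, fewer cells of a type and less RNA per cell cannot be told apart.

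Cells hold free zinc at a very low level. ZIP proteins bring zinc into the cytosol from outside or from vesicles, and ZnT proteins carry it the other way. When cytosolic zinc rises, MTF1 binds metal response elements and turns on the metallothioneins, small cysteine-rich proteins that bind zinc, together with the exporter ZnT1. In osteoarthritic cartilage, ZIP8 is known as the importer that feeds this loop, and MTF1 is known to activate genes of matrix-degrading proteases there.

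The letters of the metal response element core were looked for in the RefSeq promoter windows (build GRCm38.p6, from 250 bases before to 50 bases after the start), which exist in the table for 7 of the 8 genes. *Slc39a14* has no entry. The start is the RefSeq start site, which can differ from the GENCODE gene start given below, for *Mtf1* 124802549 against 124802104. The motif was TGCACNC or TGCGCNC on both strands, no matches overlapped, and 25.7% of the 32851 windows of this length hold it. The following stretches are shown because the genes are the classical MTF1 targets, and capitals mark the motif or its reverse complement:
Mt1, chr8:94178839-94179115, plus strand: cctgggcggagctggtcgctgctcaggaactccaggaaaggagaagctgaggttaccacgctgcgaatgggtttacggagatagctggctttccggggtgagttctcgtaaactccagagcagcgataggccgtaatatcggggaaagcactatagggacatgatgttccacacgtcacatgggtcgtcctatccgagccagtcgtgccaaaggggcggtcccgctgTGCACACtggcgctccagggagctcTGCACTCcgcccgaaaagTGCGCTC
Mt2, chr8:94172368-94172628, plus strand: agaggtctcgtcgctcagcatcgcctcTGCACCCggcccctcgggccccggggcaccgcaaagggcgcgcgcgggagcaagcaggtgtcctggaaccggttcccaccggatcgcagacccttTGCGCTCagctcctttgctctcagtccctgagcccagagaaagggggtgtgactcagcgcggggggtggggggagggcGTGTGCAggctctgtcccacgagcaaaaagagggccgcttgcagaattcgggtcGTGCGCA
Slc30a1, chr1:191906531-191906780, plus strand: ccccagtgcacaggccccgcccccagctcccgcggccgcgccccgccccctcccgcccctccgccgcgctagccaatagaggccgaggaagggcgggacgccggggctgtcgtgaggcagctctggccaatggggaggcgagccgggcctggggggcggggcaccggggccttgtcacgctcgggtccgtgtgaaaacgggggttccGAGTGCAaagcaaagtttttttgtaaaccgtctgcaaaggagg
*Mt2* held 4 matches, and 0.517% of all windows hold at least as many. *Mt1* held 3, all on its own strand and between 23 bases before and 27 bases after the start, and *Slc30a4* also held 3 (1.97% of windows have at least as many). *Slc30a1* held 2, of which the second lies after the stretch shown (7.11% of windows). The later of the 2 windows of *Slc39a8* held 1 match and the earlier held 0, and the windows of *Slc39a1* and *Mtf1* held 0. A match is a run of letters and not evidence of binding.

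The levels of the genes, compared as TPM because this unit is scaled to length, ranged widely. In Control cultures *Mt2* was highest at 2276 ± 263 TPM (SD, n = 3), followed by *Mt1* at 1443 ± 169, *Slc39a14* at 359 ± 8.56, *Slc39a1* at 135 ± 1.97, *Slc39a8* at 58.0 ± 0.738 and *Slc30a4* at 20.7 ± 1.51 TPM. *Mtf1* (9.25 ± 1.35 TPM) and *Slc30a1* (7.58 ± 0.435 TPM) were lowest, and their values overlapped. The order by mean TPM was the same in the Ad-OSCAR and Ad-OSCAR + 5-ASA groups, and apart from *Mtf1* and *Slc30a1* no neighbours in it overlapped.

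To ask how OSCAR overexpression affected these genes, Ad-OSCAR was compared with Control. Of the 8 genes, 5 rose (*Slc30a1*, *Slc30a4*, *Mtf1*, *Mt1* and *Mt2*), 2 fell (*Slc39a8* and *Slc39a1*) and *Slc39a14* did not pass an adjusted p below 0.05 (quasi-likelihood test of edgeR, adjusted by Benjamini-Hochberg over all 15362 genes tested, the source of every adjusted p here unless another tool is named). Over all genes 65% passed this test, 32.7% higher and 32.2% lower, and the 7 of 8 genes are to be read against this share. The values of the groups did not overlap for 7 of the 8 genes and for 69% of all genes, and 0 of the 8 passed the study's thresholds (a log2 fold change over 1.5 in size with an adjusted p below 0.05), which 9.96% of all genes did. The median log2 fold change was 0.19 for the 8 genes and 0.02 for all genes tested. The changes were small except for the metallothioneins: *Mt2* alone changed by 2-fold or more.

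**Figure D1:**
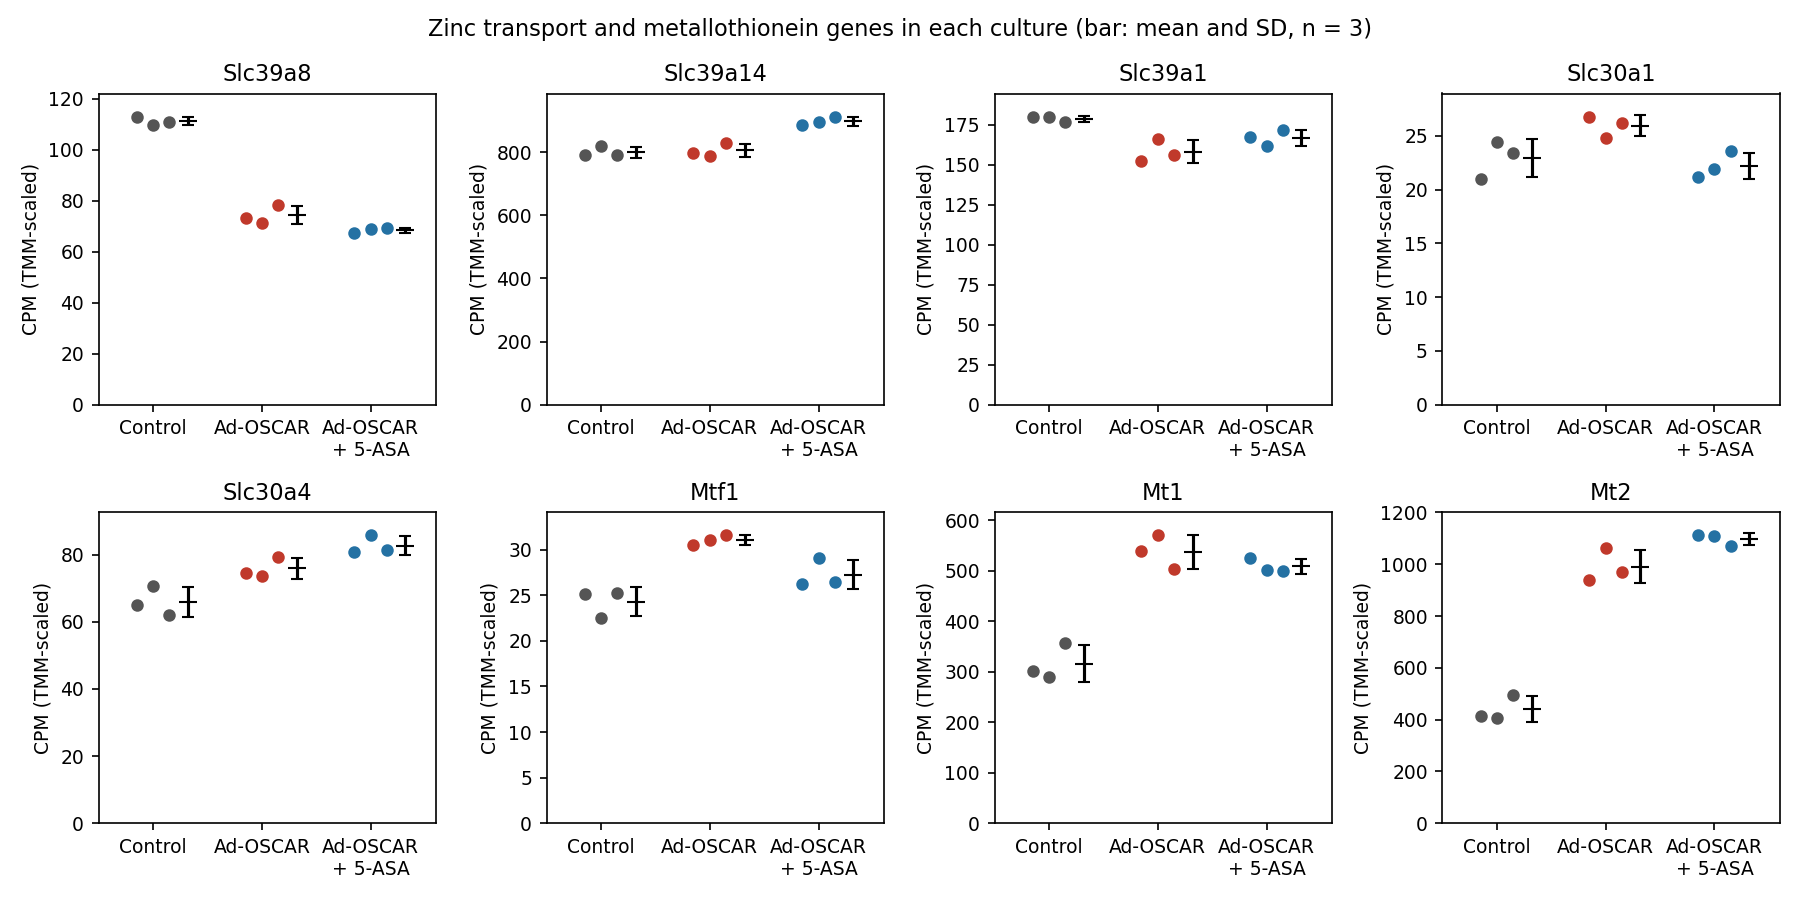
TMM-scaled CPM (vertical axes, from 0) of the 8 genes in each culture (points) by group, with the mean and SD of 3 cultures as a bar beside them. *Mt1* and *Mt2* lie higher in every Ad-OSCAR culture than in any Control culture, and *Slc39a8* lies lower.

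*Slc39a8* (ENSMUSG00000053897.15; chr3:135825279-135888572, plus strand of GRCm38) encodes ZIP8, an importer of zinc that also carries manganese and iron. It stood at 113, 110 and 111 CPM in the Control cultures and at 73.2, 71.3 and 78.4 CPM with Ad-OSCAR. Every Ad-OSCAR culture was below every Control culture. The fall was -0.58 on the log2 scale (standard error 0.05, adjusted p = 3.68e-09), or 1.49-fold. It passed the test under all 18 other settings tried, between -0.62 and -0.55. The gene overlaps *Gm43428* and *Gm43429* on the same strand, which had at most 18 and 28 counts.

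*Slc39a14* (ENSMUSG00000022094.15; chr14:70303469-70351425, minus strand), whose product ZIP14 is a close relative of ZIP8 with a similar range of metals, was measured at 790, 819 and 790 CPM in Control and 799, 789 and 828 CPM with Ad-OSCAR. The groups overlapped, and the log2 fold change was 0.01 with a 95% interval from -0.07 to 0.09 (adjusted p = 0.831). *Slc39a1* (ENSMUSG00000052310.9; chr3:90248172-90253612, plus strand), which encodes the plasma membrane importer ZIP1, was at 180, 180 and 177 CPM in Control and at 152, 166 and 156 CPM with Ad-OSCAR. It fell by 0.18 on the log2 scale (standard error 0.05, adjusted p = 0.00251), with no overlap between the groups.

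The balance of these importers is described within each culture by the ratio of their TPM, which restates the levels of both genes and is no further evidence of a change. *Slc39a14* exceeded *Slc39a8* 6.04-, 6.12- and 6.42-fold in the Control cultures, 9.64-, 9.61- and 9.29-fold in the Ad-OSCAR cultures, and 11.2-, 11.1- and 11.7-fold with 5-ASA. No groups overlapped. With 3 against 3 cultures an exact two-sided permutation test cannot go below p = 0.1, so the ratios are given as a description.

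*Slc30a1* (ENSMUSG00000037434.7; chr1:191906767-191913247, plus strand) encodes ZnT1, the exporter at the plasma membrane. Its values were 21.0, 24.4 and 23.4 CPM in Control and 26.8, 24.8 and 26.2 CPM with Ad-OSCAR. The groups did not overlap, yet the highest Control and the lowest Ad-OSCAR cultures almost met. The log2 fold change was 0.18 (standard error 0.07, adjusted p = 0.0274), and the call was lost in 7 of 18 other settings, including DESeq2 and the tests on TPM and when Control replicate 1 (0.11, adjusted p = 0.176), Ad-OSCAR replicate 1 (0.16, adjusted p = 0.0909) or Ad-OSCAR replicate 3 (0.18, adjusted p = 0.0560) was left out. Over all 18 the adjusted p ran from 0.0145 to 0.176.

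*Slc30a4* (ENSMUSG00000005802.12; chr2:122681233-122702663, minus strand) encodes ZnT4, which loads zinc into vesicles. It was at 65.0, 70.6 and 61.9 CPM in Control and at 74.6, 73.8 and 79.4 CPM with Ad-OSCAR, without overlap. Its log2 rise was 0.20 (standard error 0.05, adjusted p = 0.00310), and the call was made under all 18 other settings.

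*Mtf1* (ENSMUSG00000028890.13; chr4:124802104-124849800, plus strand), the zinc-sensing transcription factor, had 25.2, 22.5 and 25.3 CPM in Control and 30.5, 31.1 and 31.6 CPM with Ad-OSCAR. Every Ad-OSCAR culture was higher, and the log2 fold change was 0.36 (standard error 0.06, adjusted p = 6.07e-05). The TPM of the same cultures showed no such separation: they were 10.3, 9.75 and 7.72 in Control and 9.36, 8.98 and 10.6 with Ad-OSCAR. On log2(TPM + 1), limma gave a change of 0.06 (adjusted p = 0.686), the least of the 18 other settings, over which the adjusted p ran from 5.31e-07 to 0.698.

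The effective length, the mean transcript length by which RSEM divides the counts of a gene and which follows the isoforms it assigns, moved with this difference. For *Mtf1* it was 4007, 3828 and 5355 bases in Control, 5533, 5688 and 5063 bases with Ad-OSCAR, and 5882, 5111 and 5848 bases with 5-ASA. Control replicates 1 and 2 had the shortest lengths of the 9 cultures. Whether isoform use changed was not tested. *Mtf1* also overlaps the protein-coding gene *1110065P20Rik* on the other strand, which had up to 512 counts. Which strand the counting used is not given in the sources used here.

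**Figure D2:**
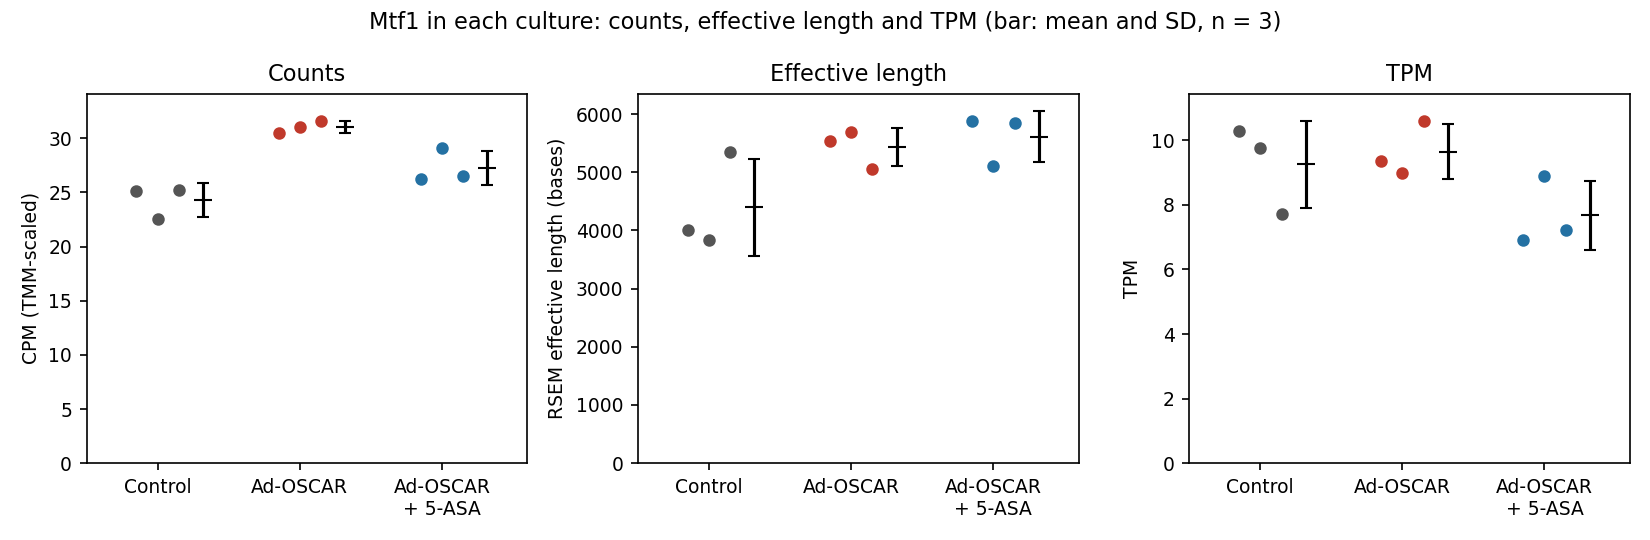
*Mtf1* in each culture (points; bar, mean and SD of 3 cultures) as TMM-scaled CPM, as RSEM effective length in bases and as TPM, with all vertical axes from 0. The Ad-OSCAR cultures lie above Control in CPM, whereas their TPM values overlap.

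*Mt1* (ENSMUSG00000031765.8; chr8:94179082-94180327) and *Mt2* (ENSMUSG00000031762.7; chr8:94172664-94173568) encode the metallothioneins that most tissues make. They are neighbours on the plus strand, with 5513 bases between them. *Mt1* was at 301, 289 and 358 CPM in Control and at 539, 571 and 504 CPM with Ad-OSCAR. *Mt2* was at 414, 408 and 497 CPM in Control and at 940, 1063 and 971 CPM with Ad-OSCAR. In both genes every Ad-OSCAR culture was above every Control culture, and Control replicate 3 was the highest of its group. *Mt1* rose 1.70-fold, or 0.77 in log2 (standard error 0.07, adjusted p = 7.59e-09), and *Mt2* by 1.17, or 2.26-fold (standard error 0.06, adjusted p = 1.35e-11). Both passed the test under all 18 other settings, at 0.70 to 0.86 for *Mt1* and 1.12 to 1.27 for *Mt2*. *Mt2* overlaps the antisense gene *Gm45774*, which had at most 221 counts.

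The balance between the metallothioneins is described in the same way. The TPM ratio of *Mt2* to *Mt1* was 1.56, 1.60 and 1.58 in the Control cultures, 1.98, 2.12 and 2.20 with Ad-OSCAR, and 2.42, 2.53 and 2.44 with 5-ASA. The 3 groups did not overlap, and these ratios too restate the levels of both genes.

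**Figure D3:**
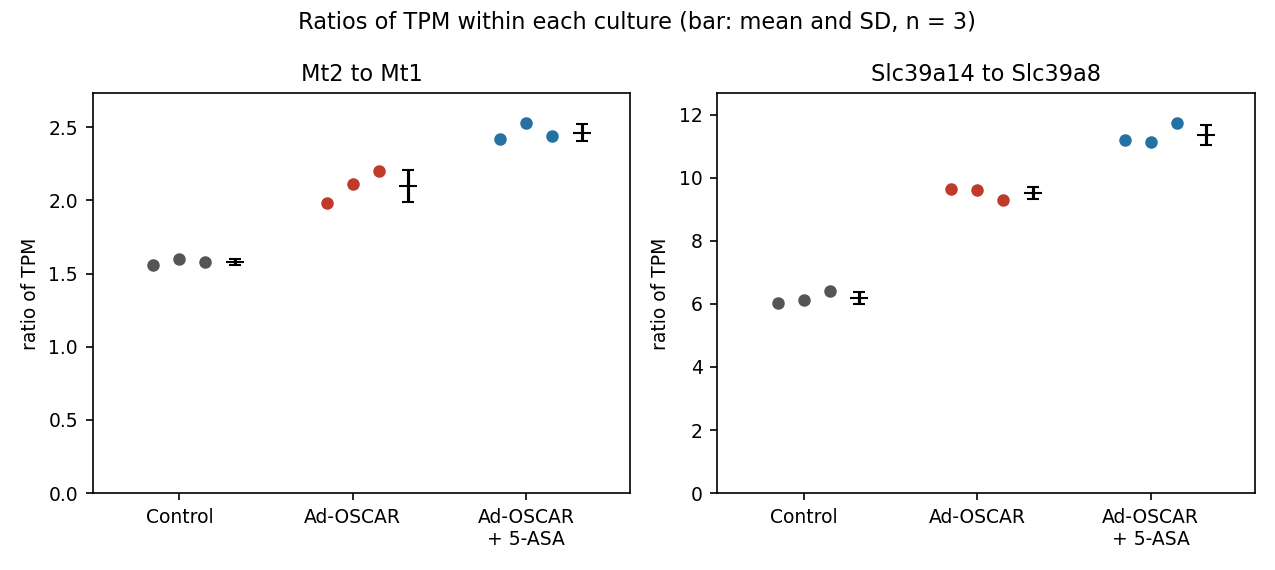
TPM ratio of *Mt2* to *Mt1* and of *Slc39a14* to *Slc39a8* (vertical axes, from 0) in each culture (points) with the mean and SD of 3 cultures. Both ratios are lowest in Control and highest with 5-ASA, at 1.58 ± 0.02, 2.10 ± 0.11 and 2.46 ± 0.06 for the metallothioneins and 6.19 ± 0.20, 9.51 ± 0.19 and 11.4 ± 0.33 for the importers (SD, n = 3).

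The effect of the drug on cells that overexpress OSCAR was measured by comparing Ad-OSCAR + 5-ASA with Ad-OSCAR. Among the 8 genes, *Slc39a14* rose, *Slc30a1* and *Mtf1* fell, and 5 did not pass the test, among them *Slc39a8* and both metallothioneins. Over all genes 17.8% passed, 10.4% higher and 7.38% lower. The groups did not overlap for 6 of the 8 genes and for 33.8% of all genes, and 0 of the 8 passed the study's thresholds for 5-ASA (a fold change over 1.5 with an unadjusted p below 0.05), which 4.15% of all genes did. The methods of the study word these thresholds for treated cells against control cells, and their use between the 2 Ad-OSCAR groups is an extension made here. The median log2 fold change of the 8 genes was -0.0017, against -0.0044 for all genes. This comparison uses the same Ad-OSCAR cultures as the first, and the *Oscar* level itself fell by 0.97 on the log2 scale (standard error 0.06, adjusted p = 1.76e-08), so the part of a lower OSCAR level in any difference was not tested.

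*Slc39a14* was at 886, 895 and 913 CPM with 5-ASA, above all of the other 6 cultures. The rise over Ad-OSCAR was 0.16 on the log2 scale (standard error 0.04, adjusted p = 0.00899). In TPM the treated cultures had 366, 375 and 410 and the untreated ones 377, 356 and 390, which overlapped, and limma on log2(TPM + 1) gave 0.03 (adjusted p = 0.754). Over the 18 other settings the adjusted p ran from 2.90e-05 to 0.757, and the 2 tests on TPM were those that lost the call. The median of all genes in this comparison was -0.10 on the TPM scale and -0.0044 on the count scale.

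*Slc39a8* was at 67.2, 68.7 and 69.1 CPM with 5-ASA, each below the lowest Ad-OSCAR culture. The difference of -0.12 on the log2 scale (95% interval from -0.22 to -0.02) did not pass after adjustment (adjusted p = 0.0884), nor under any of the 18 other settings (adjusted p from 0.0550 to 0.293). It reached -0.22 on TPM, a scale on which the median of all genes was -0.10. *Slc39a1* stood at 167, 161 and 171 CPM, overlapping with Ad-OSCAR, with a log2 fold change of 0.08 (95% interval from -0.02 to 0.17, adjusted p = 0.282) that turned to -0.02 on TPM.

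*Slc30a1* was at 21.2, 21.9 and 23.6 CPM with 5-ASA, below every Ad-OSCAR culture and in the range of Control. It fell by 0.23 on the log2 scale (standard error 0.07, adjusted p = 0.0230). DESeq2 gave adjusted p-values of 0.0563 with all cultures and 0.0605 with only those compared, and leaving out Ad-OSCAR replicate 1 (-0.21, adjusted p = 0.0989) or 3 (-0.22, adjusted p = 0.0587), or Ad-OSCAR + 5-ASA replicate 1 (-0.19, adjusted p = 0.114) or 2 (-0.22, adjusted p = 0.0618), also lost the call. Over all 18 settings the adjusted p ran from 0.0128 to 0.114. *Slc30a4* was at 80.7, 85.8 and 81.5 CPM, above every Ad-OSCAR culture, but its difference of 0.12 (95% interval from 0.01 to 0.23) did not pass after adjustment (adjusted p = 0.123).

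*Mtf1* was at 26.2, 29.1 and 26.5 CPM with 5-ASA, between the values of the other groups. Its fall of 0.19 on the log2 scale (standard error 0.06, adjusted p = 0.0369) was above the spread between cultures in that fit. Over all 18 other settings the adjusted p ran from 0.0153 to 0.163, and the call was lost in 10. These were both DESeq2 fits, a block on the replicate number (-0.19) and both tests on TPM (-0.30 and -0.33). The others were the fits without Ad-OSCAR replicate 1, 2 or 3 (-0.20, -0.19 and -0.18) or Ad-OSCAR + 5-ASA replicate 1 or 3 (-0.16 and -0.17).

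*Mt1* was at 525, 501 and 500 CPM with 5-ASA, which overlapped with Ad-OSCAR (log2 fold change -0.08, 95% interval from -0.22 to 0.06, adjusted p = 0.447). *Mt2* was at 1113, 1111 and 1069 CPM, the lowest of which was just above the highest Ad-OSCAR culture. Its difference of 0.15 (95% interval from 0.01 to 0.28) did not pass after adjustment (adjusted p = 0.122). It passed in 3 of 18 other settings, without the filter on low counts (adjusted p = 0.0190), with DESeq2 on only the cultures compared (0.0167) and without Control replicate 3 (0.0383), and the adjusted p over all 18 ran up to 0.550.

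**Figure D4:**
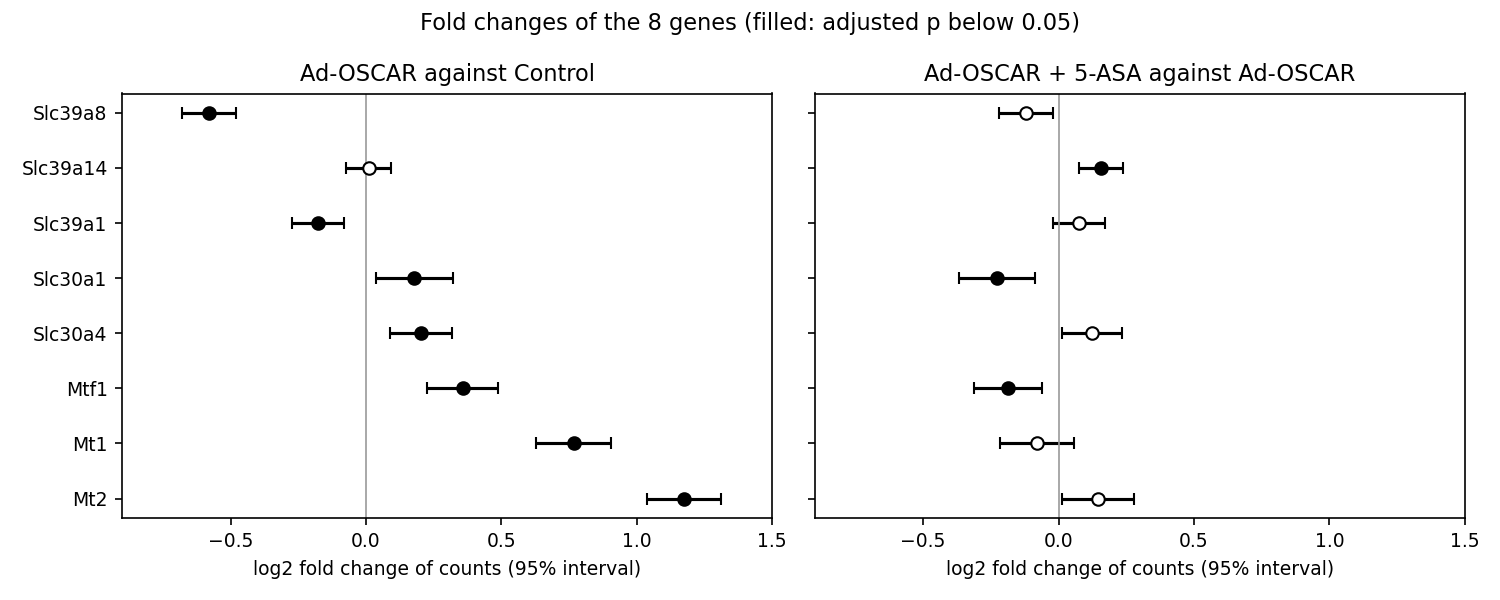
Log2 fold change of counts with its 95% interval (horizontal axes) for the 8 genes, Ad-OSCAR against Control at the left and Ad-OSCAR + 5-ASA against Ad-OSCAR at the right, with filled points for an adjusted p below 0.05. *Mt2* at 1.17, *Mt1* at 0.77 and *Slc39a8* at -0.58 stand farthest from 0 at the left, and no gene exceeds 0.23 in size at the right.

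Against Control, the cultures with Ad-OSCAR + 5-ASA had 5 genes higher (*Slc39a14*, *Slc30a4*, *Mtf1*, *Mt1* and *Mt2*) and *Slc39a8* lower, where 63.2% of all genes passed the test, 31.4% higher and 31.8% lower. The groups did not overlap for 7 of the 8 genes, against 66.6% of all genes, and 3 of the 8 passed the study's thresholds for 5-ASA, against 29.9% of all genes. This comparison shares cultures with both others. *Slc39a8* was lower by -0.70 on the log2 scale (standard error 0.05, adjusted p = 3.09e-10), *Mt1* higher by 0.69 (standard error 0.07, adjusted p = 3.96e-08) and *Mt2* higher by 1.32 (standard error 0.06, adjusted p = 2.95e-12). *Slc30a4* was higher by 0.33 (standard error 0.05, adjusted p = 4.00e-05). *Slc39a14* was higher by 0.17 (standard error 0.04, adjusted p = 0.00120), a call that the tests on TPM did not make (0.09, adjusted p = 0.237 and 0.244; over 18 settings from 1.01e-05 to 0.244). *Mtf1* was higher by 0.17 on counts (standard error 0.06, adjusted p = 0.0256) and lower on TPM, by -0.24, so that its direction depended on the scale. The call was lost in 6 of 18 other settings, which include both DESeq2 fits (0.17 and 0.16, adjusted p = 0.142 and 0.0990). *Slc30a1* differed by -0.05 (95% interval from -0.19 to 0.10, adjusted p = 0.561) and *Slc39a1* by -0.10 (95% interval from -0.20 to -0.0039, adjusted p = 0.0649). *Slc39a1* was called lower in 4 of 18 other settings, with DESeq2 on all cultures (-0.11, adjusted p = 0.0400), with both tests on TPM (-0.17, adjusted p = 0.0306 and 0.0327) and without Ad-OSCAR + 5-ASA replicate 3 (-0.12, adjusted p = 0.0493).

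The other zinc genes were taken from a list of 21, of which 13 had enough counts to be tested: 8 of 11 further ZIP genes, 4 of 8 further ZnT genes and 1 of 2 further metallothioneins. With Ad-OSCAR against Control 5 of the 13 were called higher and 5 lower, to be read against 32.7% and 32.2% of all genes, and their median log2 change was 0.02, equal to that of all genes at this rounding. The higher calls include *Slc39a4* and *Mt3*. These passed the filter on low counts only through the groups with Ad-OSCAR, so their direction was set by the filter. With at least 10 counts in every culture, 3 genes were called higher. The further ZIP genes had 3 higher and 2 lower, and the further ZnT genes 1 higher and 3 lower. With 5-ASA against Ad-OSCAR 1 rose and 3 fell, all of them ZIP genes, where 10.4% of all genes rose and 7.38% fell. The median was -0.08 over the 13 and -0.0044 over all genes.

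*Slc39a10*, which encodes the plasma membrane importer ZIP10, was at 49.04, 49.97 and 47.73 CPM in Control, 152, 141 and 167 CPM with Ad-OSCAR, and 132, 122 and 135 CPM with 5-ASA. Its rise with Ad-OSCAR was 1.65 on the log2 scale, or 3.14-fold (standard error 0.06, adjusted p = 5.18e-14). Its 95% interval, from 1.52 to 1.78, lay above that of *Mt2*, from 1.04 to 1.31. With 5-ASA it fell by 0.24 (standard error 0.06, adjusted p = 0.00581). *Gm28151*, which overlaps it on the same strand, had at most 79 counts. *Slc39a6*, whose product ZIP6 is the closest relative of ZIP10, was at 99.3, 94.5 and 91.9 CPM in Control, 130, 124 and 133 CPM with Ad-OSCAR, and 112, 115 and 116 CPM with 5-ASA. It rose by 0.44 (standard error 0.05, adjusted p = 1.72e-07) and fell by 0.18 with the drug (standard error 0.05, adjusted p = 0.0119), the latter not without Ad-OSCAR + 5-ASA replicate 1 (-0.16, adjusted p = 0.0623) nor on TPM (-0.25 and -0.26; over 18 settings from 0.00305 to 0.0884). *Slc39a6* overlaps *Elp2* on the other strand.

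*Slc39a7* and *Slc39a13* encode ZIP7 and ZIP13, which release zinc from the endoplasmic reticulum, the Golgi apparatus and vesicles, and ZIP13 is needed for normal connective tissue. *Slc39a7* was at 357, 341 and 355 CPM in Control, 314, 319 and 294 CPM with Ad-OSCAR, and 274, 248 and 277 CPM with 5-ASA, and *Gm20427*, on the same strand over it, had at most 142 counts. It fell by 0.18 with Ad-OSCAR (standard error 0.05, adjusted p = 0.00348) and by a further 0.22 with 5-ASA (standard error 0.05, adjusted p = 0.00511). *Slc39a13*, which overlaps *Psmc3* on the other strand, was at 158, 154 and 183 CPM in Control, 163, 180 and 160 CPM with Ad-OSCAR, and 200, 198 and 205 CPM with 5-ASA. It differed by 0.02 between Ad-OSCAR and Control (adjusted p = 0.781) and rose by 0.27 with 5-ASA (standard error 0.06, adjusted p = 0.00449). On log2(TPM + 1) limma called the first difference (0.24, adjusted p = 0.0158) and not the second (0.18, adjusted p = 0.132), and it called neither fall of *Slc39a7*, at -0.22 and -0.27 (adjusted p = 0.0516 and 0.0760).

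At the lowest levels, *Slc39a4*, which encodes ZIP4, the importer of dietary zinc in the gut, had 1, 4 and 2 counts in Control, 26, 22 and 29 with Ad-OSCAR, and 15, 16 and 28 with 5-ASA. The ratio of the summed counts of Ad-OSCAR to Control, scaled to the libraries, was 8.71, with an exact 95% interval from 4.03 to 22.4 that covers counting error only. *Mt3*, a metallothionein best known from the brain and located upstream of *Mt2*, had 0 counts in every Control culture, 9, 10 and 12 with Ad-OSCAR, and 5, 11 and 4 with 5-ASA. With Control taken at a set floor of 3 counts per library, the *Mt3* mean was 2.72-fold this floor with Ad-OSCAR and 1.78-fold with 5-ASA. These ratios leave out the counting error of the means set against the floor.

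**Figure D5:**
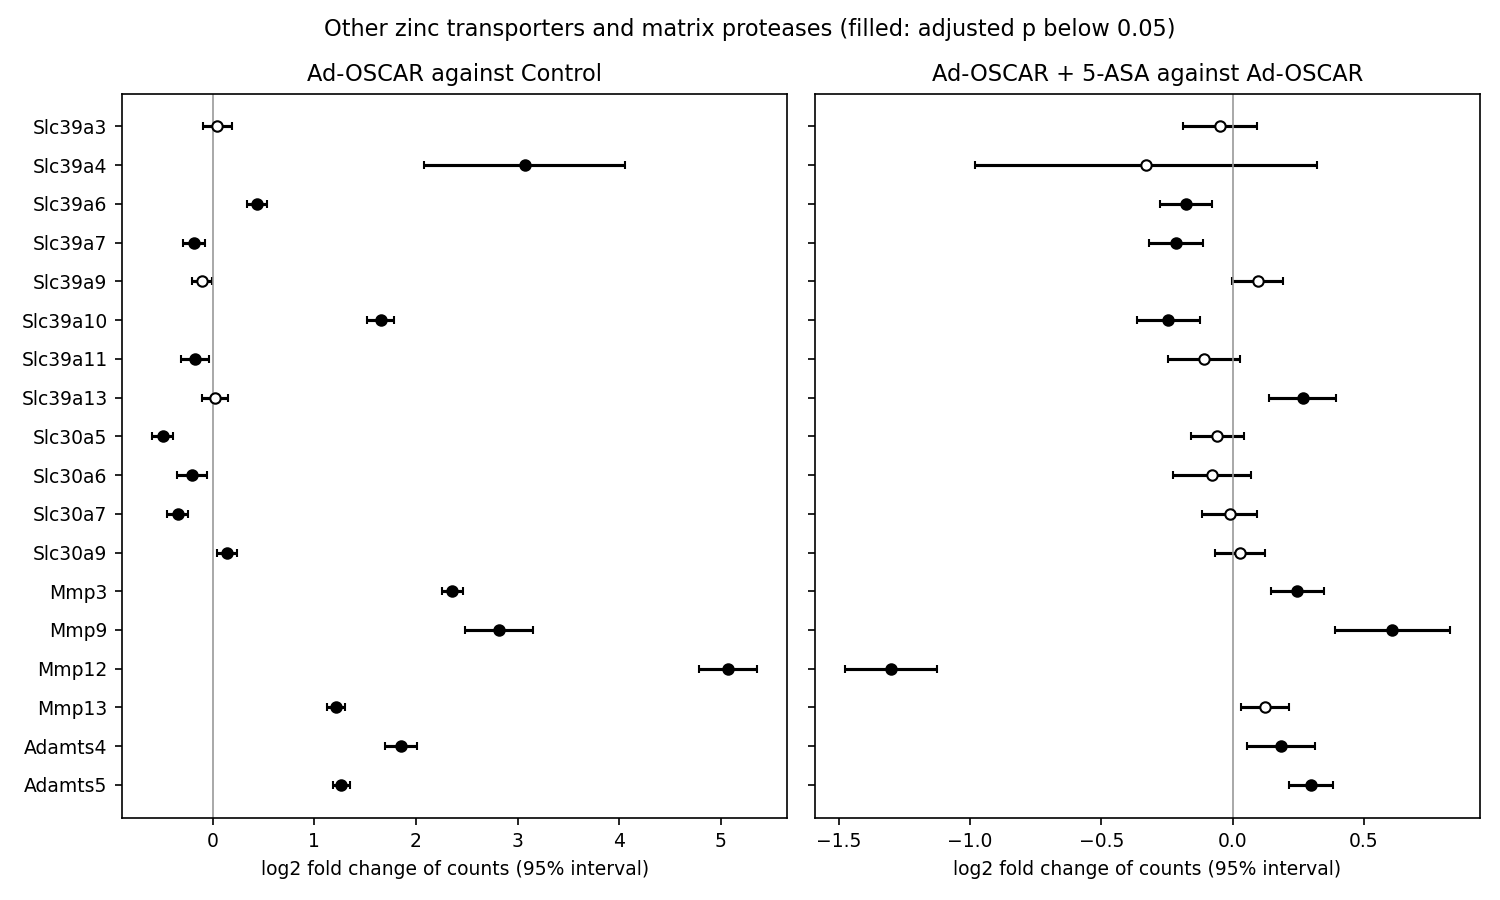
Log2 fold change of counts with its 95% interval (horizontal axes, which differ in range) for 12 further zinc transporters and 6 matrix proteases in both comparisons, with filled points for an adjusted p below 0.05. *Slc39a10* at 1.65 and *Slc39a4* at 3.07 stand apart among the transporters at the left, and *Mmp12* lies farthest below 0 at the right. *Slc39a4* had at most 4 counts in a Control culture and passed the filter only through the groups with Ad-OSCAR. Its change at the left ran from 0.97 to 3.57 over 17 other settings.

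Matrix proteases that MTF1 is known to activate or that break down cartilage were read beside the zinc genes. All 6 rose with Ad-OSCAR, as 32.7% of all genes did: the stromelysin gene *Mmp3* by 2.36 on the log2 scale, the gelatinase gene *Mmp9* by 2.82, the elastase gene *Mmp12* by 5.07, the collagenase gene *Mmp13* by 1.21, and the aggrecanase genes *Adamts4* and *Adamts5* by 1.85 and 1.27 (standard errors from 0.04 to 0.16). In the same cultures *Slc39a8* fell, while *Mt1*, *Mt2* and, on counts only, *Mtf1* rose. A link between these changes and the proteases was not tested. With 5-ASA, 4 of the 6 rose and 1 fell, against 10.4% and 7.38% of all genes. *Mmp12* fell 2.46-fold (adjusted p = 1.35e-08), from 27.3, 28.4 and 32.3 CPM to 11.4, 12.5 and 11.9 CPM. *Mmp3*, *Mmp9*, *Adamts4* and *Adamts5* rose further, by 0.25, 0.61, 0.18 and 0.30. The paper states the other direction for its RNA-seq, a reversal by 5-ASA of the rise of MMP3, MMP9, MMP13 and ADAMTS5. The call for *Adamts4* was lost in 13 of 18 other settings (adjusted p over all 18 from 0.00886 to 0.526). Among fits without a culture it was kept only without Control replicate 2 or Ad-OSCAR + 5-ASA replicate 2. The log2 changes of all fits without a culture, with or without the call, ran from 0.13 to 0.25. *Mmp13* differed by 0.12 (adjusted p = 0.0566). It passed in 7 of 18 other settings (adjusted p from 0.0150 to 0.798), which include the fits without Control replicate 2 and without Ad-OSCAR + 5-ASA replicate 3. On TPM the rises of *Mmp3* and *Adamts5* with 5-ASA were not called (0.15 and 0.20), and that of *Mmp9* was called on log2(TPM + 1) but not on log2(TPM + 0.1) (0.49).

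The genes whose pattern over the 9 cultures was most like that of a zinc gene were found by the root mean square difference of log2 CPM, each gene centred on its mean, among 13259 genes with a mean of at least 1 CPM. For *Slc39a8* they were *Pdia4* (0.038), *Cab39l* (0.040) and *Lifr* (0.040), which encode a protein disulfide isomerase of the endoplasmic reticulum, a calcium-binding-protein-like scaffold and the receptor of leukaemia inhibitory factor. For *Mt1* they were *Grina* (0.057), *Prdx5* (0.063), which encodes a peroxiredoxin, and *Mafg* (0.065), which encodes a small MAF transcription factor. For *Mt2* they were *Zfp36l1* (0.064), which encodes an RNA-binding protein that speeds mRNA decay, *Fam210b* (0.070) and the vascular growth factor gene *Vegfc* (0.084). *Mt1* and *Mt2* were not compared with each other in this search. *Pdia4* changed by -0.58 with Ad-OSCAR and by -0.09 with 5-ASA, against -0.58 and -0.12 for *Slc39a8*.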

How the data were processed

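RNA of 9 cultures was sequenced from stranded mRNA libraries. Per the labels and the submitters' processing notes, the authors used FastQC, STAR 2.7.1a and RSEM 1.3.1 with GRCm38 (mm10). The authors deposited, for 55471 genes per culture, RSEM's estimated counts (not scaled), TPM and FPKM; the FPKM were not used here. The deposited effective length per gene, in bases, is the length by which RSEM divides. Symbols and coordinates are from GENCODE M21, which matched 55230 identifiers, and promoter windows from RefSeq.

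Estimated counts were rounded to whole numbers (8.97% to 10.1% of genes per culture were not whole). They summed to between 19733448 and 28192740 per culture, and replicates differed by more than sampling noise (chi-square per degree of freedom from 4.25 to 8.10). Genes were tested in one fit of all 9 cultures with edgeR 4.0.16 in R 4.3.3 (TMM, filterByExpr, quasi-likelihood F test, Benjamini-Hochberg over 15362 genes, 6 residual degrees of freedom, called below 0.05). Standard errors are |log2FC| over the square root of F. CPM are TMM-scaled. Intervals of counts cover counting error only, and ratios to the floor of 3 counts leave out the counting error of the mean set against it. The method was tested on simulated counts. In them far fewer genes changed than were called here, each by 2-fold or more, so smaller changes were not covered.

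Other settings tried were RLE size factors, no filter on low counts, a minimum of 10 counts in each culture, fits of only the groups compared, a block on the replicate number, DESeq2 1.42.0 (on all 9 cultures and on those compared alone), limma 3.58.1 on log2(TPM + 1) and log2(TPM + 0.1), each culture left out in turn, and, for counts of genes, the study's thresholds as given in the report. That makes 18 settings for a single gene. Python 3.11.15 with pandas 2.3.3, numpy 2.4.6, scipy 1.17.1 and matplotlib 3.10.9 made the tables and plots.

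The 8 genes, the further lists and the tests were chosen with earlier results of these data known. All 8 were named. From the zinc and protease lists, genes were named if called with at least a 2-fold change in Ad-OSCAR against Control, or called in Ad-OSCAR + 5-ASA against Ad-OSCAR, and for *Slc39a8*, *Mt1* and *Mt2* the 3 genes nearest in pattern.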

Additional observations from a re-analysis of the deposited data

How the results depend on the processing

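In Ad-OSCAR against Control, the calls of *Slc39a8*, *Slc39a1*, *Slc30a4*, *Mt1* and *Mt2* were made in all 18 settings tried, whereas those of *Slc30a1* and of *Mtf1* were not. The tests on TPM called 3 of the 8 genes higher in that comparison and 3 higher and 2 lower in Ad-OSCAR + 5-ASA against Control, with either pseudocount. The study's thresholds gave 0 higher and 0 lower with Ad-OSCAR against Control, 0 and 0 with 5-ASA against Ad-OSCAR, and 2 higher with 5-ASA against Control. In 5-ASA against Ad-OSCAR the count higher was 2 without the filter and with DESeq2 on only the cultures compared and 0 on TPM, and the count lower was 1 with the replicate block, 0 with either DESeq2 fit and 1 on TPM. DESeq2 with all cultures gave 2 lower in 5-ASA against Control. With single cultures left out, the counts of 5-ASA against Ad-OSCAR ran from 1 to 2 higher and from 0 to 2 lower, and 5-ASA against Control had from 1 to 2 lower.

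In the wider zinc list, at least 10 counts in every culture left 3 genes higher with Ad-OSCAR, as did the study's thresholds, which left 0 lower, and TPM gave 2 lower. With 5-ASA against Ad-OSCAR, TPM gave 0 higher and 1 lower, and the study's thresholds 0 and 0. The proteases higher with 5-ASA numbered 1 on log2(TPM + 1), 0 on log2(TPM + 0.1) and 1 by the study's thresholds. At least 10 counts left fewer genes to test. For the other changes the cause was not tested.

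Signs turned where a difference was near 0 or the scale changed. *Slc39a14* in Ad-OSCAR against Control was -0.0003 with RLE, -0.0009 and -0.0028 with DESeq2, and between -0.0062 and 0.0272 with a culture left out (-0.0015 without Control replicate 1, -0.0011 without Control replicate 3 and -0.0062 without Ad-OSCAR replicate 3). *Slc39a1* in 5-ASA against Ad-OSCAR was -0.016 and -0.0161 on TPM. *Slc30a1* in 5-ASA against Control was 0.0004 without Control replicate 2, and from -0.1116 to 0.0004 over all left-out cultures. *Mtf1* in 5-ASA against Control was -0.2397 and -0.265 on TPM, and its call was also lost with both DESeq2 fits and without Control replicate 2 (0.11) or Ad-OSCAR + 5-ASA replicate 2 (0.12). *Slc39a13* in Ad-OSCAR against Control was -0.0112, -0.0304 and -0.0302 without Control replicate 1, Control replicate 2 and Ad-OSCAR replicate 2, and at most 0.0973 with another culture left out.

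The labels number the cultures 1 to 3 in each group. The deviations from the group means of cultures with the same number correlated between -0.072 and 0.040 across genes, so the numbers share only a name. With the replicate number as a block, *Mtf1* in 5-ASA against Ad-OSCAR was -0.1873 (adjusted p = 0.0580 from edgeR) and lost its call, *Adamts4* lost its call (0.0530) and *Mmp13* gained one (0.0364), and no other named zinc gene changed side of the threshold. The block moved the calls over all genes from 9983 to 9882 in Ad-OSCAR against Control and from 2732 to 2500 in 5-ASA against Ad-OSCAR, and 1 of 9 cultures correlated best with its own number. Depth limited *Slc39a4* and *Mt3*, with at most 4 and 0 counts in a Control culture.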
